A study of Mus musculus with 16 samples.

Results

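The RNAs described here are the 100 gene identifiers whose share of the captured RNA grew most with labelling time in the Control cells of a nascent RNA series from mouse embryonic stem cells, out of 54446 mouse identifiers counted. Values are in CPM, the count of an identifier per 1000000 mouse counts of the library. Identifiers with a mean of at least 50 CPM over the 8 Control libraries were kept, 4263 in all, and 678 of them had a Control mean that was higher at each step from 10 to 20, 20 to 30 and 30 to 60 min of labelling. The members were chosen by the ratio of the 60 min to the 10 min Control mean, as the 100 of these with the highest ratio, and a member is called here by its place in that order, from 1 to 100. The choice thus used the Control libraries alone, so that Control values are given as a description. Every test compared CKO libraries, which the choice did not use, and the main fit held those alone.

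The cells were C57BL/6 embryonic stem cells, self-renewing cells of the early embryo, of a Control and a Mettl14 CKO (conditional knockout) genotype. The sources used here do not say how the deletion was induced or whether a genotype is 1 clone. Both genotypes were grown in serum medium with LIF (1000 U/ml) and with the small-molecule inhibitors CHIR99021 (3 µM) and PD0325901 (1 µM), and after 48 h of growth received 0.5 mM 5-ethynyl uridine (EU) for 10, 20, 30 or 60 min. Labelled RNA was captured by click chemistry, and ERCC spike-in RNA was added after the capture and before library construction. There were 2 libraries for every genotype at every EU time, 16 in all. The labels do not say that these came from separate cultures, so a p-value measures the spread between these libraries, which may be technical. The protocol mentions 8 plates, as many as there are combinations of genotype and EU time. If each combination had 1 plate, its 2 libraries shared that plate, and EU time cannot be separated from plate in any comparison here. How the plates were shared out is not given, and an effect of plate was not tested.

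EU is built into RNA as it is transcribed, so a short pulse marks RNA that has just been made and a longer pulse marks a mixture of new and older labelled RNA. As background, an RNA that is degraded quickly soon stops accumulating label. An RNA that lasts, or that takes long to be completed, can keep accumulating it and take a growing share of the labelled pool. The lifetimes of the members were not measured, and whether they are such RNAs was not tested. METTL14 works with METTL3 to place N6-methyladenosine on messenger RNA, a mark that is known to speed the decay of many transcripts. None of the 54446 identifiers could be paired with a gene symbol from the sources used here (0 matched). The members' functions and sequences, the level of Mettl14 as a check of the genotype labels, and markers of stem cells or of other cell types were therefore not analysed here.

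Control libraries held 12883425 to 28502750 mouse counts, and CKO libraries 11902184 to 26557342 at 10, 20 and 60 min. The CKO 30 min libraries stood apart, with 5188643 and 5109162 mouse counts but 30583 and 31826 identifiers detected, against 21173 to 26857 in the other 14 libraries. Over the 4263 identifiers, the log2 CPM of the 2 replicates had a Pearson correlation of 0.954 in that group and 0.978 to 0.998 in the other groups. Counts of members called between the other EU times are given with and without these libraries. Comparisons with 30 min in CKO rest on them. Every member was well covered: the lowest count of any member was 274 in a Control library and 92 in a CKO library.

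The members were moderately abundant RNAs. Their mean Control level had a median of 86.2 CPM and ran from 50.3 to 457 CPM, against a median of 103 CPM over the 4263 identifiers. In all, 40 members reached 100 CPM and 16 reached 200 CPM. No single RNA dominated the set: the member with the most counts held 3.77% of the members' counts over all libraries, and the top 5 held 17%.

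Together the members made up 0.747% and 0.733% of the mouse counts in the Control 10 min libraries, 1.05% and 1.06% at 20 min, 1.31% and 1.32% at 30 min, and 1.66% and 1.65% at 60 min. Their Control share was thus 2.24 times as large after 60 min as after 10 min, a rise that the choice of members fixes. In the held-out CKO libraries they made up 0.760% and 0.702% at 10 min, 1.09% in both libraries at 20 min, 0.815% and 0.816% at 30 min, and 1.44% and 1.58% at 60 min. The CKO share was 2.07 times as large at 60 min as at 10 min and 1.49 times as large at 20 min. At 10 min the share of the CKO libraries lay on either side of the Control values, and at 60 min both CKO libraries lay below both Control libraries. At 30 min, in the libraries that stood apart, the mean CKO share was 1.12 times as large as at 10 min. Both of these libraries lay above both 10 min libraries and below both 20 min libraries.

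**Figure D1:**
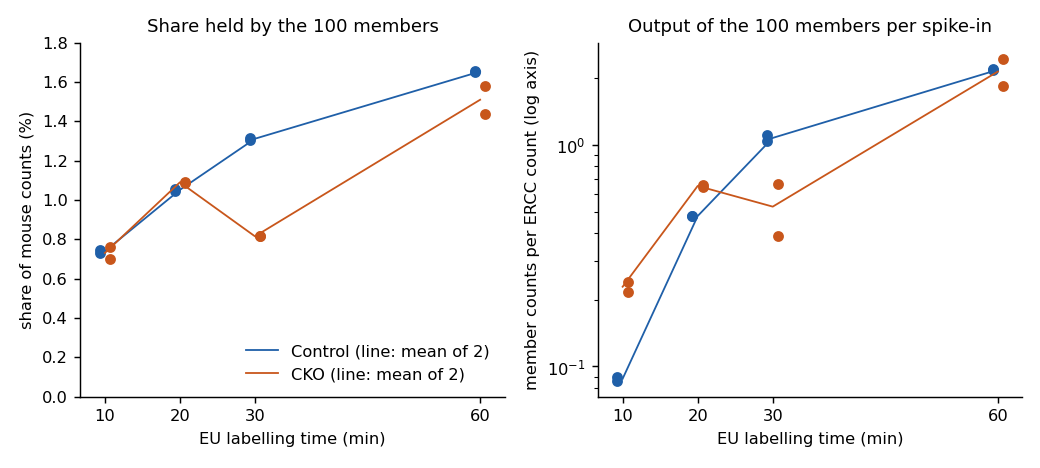
Share of mouse counts held by the 100 members (left, %) and member counts per ERCC count on a log axis (right) against EU time in min. Points are libraries and lines join the means of 2; the CKO share is 0.815% and 0.816% in the 30 min libraries, below the 1.09% of both 20 min libraries.

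Per spike-in count the members' level was higher at each later EU time in Control, and in CKO it was higher at 20 and 60 min than at 10 min, with a lower mean at 30 than at 20 min. In Control there were 0.0863 and 0.0898 member counts per ERCC count at 10 min, 0.477 in both libraries at 20 min, 1.04 and 1.11 at 30 min, and 2.19 and 2.16 at 60 min. In CKO there were 0.217 and 0.241 at 10 min, 0.656 and 0.648 at 20 min, 0.665 and 0.387 at 30 min, and 1.84 and 2.44 at 60 min. Member counts per ERCC count were thus 24.7 times as large at 60 as at 10 min in Control and 9.35 times in CKO. All mouse counts per ERCC count were 11.1 times and 4.49 times as large. Per ERCC count, the members at 10 min differed between the genotypes as the whole library did. Every one of the 100 members was higher in CKO at that time, by a median ratio of 2.63 (1.49 to 6.05), as were 99.9% of the 4263 identifiers, and all mouse counts per ERCC count were 2.64 times as high. At 20 min 99 members were higher in CKO, by a median ratio of 1.31, against 97.3% of the 4263 identifiers. At 30 min 1 member was, with a median ratio of 0.492, against 5.40% of the 4263 with a median of 0.625. At 60 min 37 were, with a median ratio of 0.943, against 54.3% of the 4263 with a median of 1.02. All members share the same ERCC totals. The spike-in was added after the capture, so more cells, more RNA per cell and a higher yield of the capture cannot be told apart.

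The gain in share was found again in the CKO libraries for nearly every member. All 100 members had a higher mean CPM at 60 than at 10 min of EU in CKO, with a median ratio of 1.94 (quartiles 1.70 and 2.41, range 1.09 to 3.57), where the Control ratio that chose them had a median of 2.25 (1.96 to 3.61). In 99 members both CKO 60 min libraries lay above both 10 min libraries, against 43.7% of the 4263 identifiers of like abundance. By the quasi-likelihood test of edgeR with TMM scaling, fitted to the 8 CKO libraries over 25405 identifiers, 91 of the 100 members rose from 10 to 60 min and 0 fell (Benjamini-Hochberg adjusted p below 0.05). Over all identifiers tested 5.9% were called higher and 3.82% lower, and over the 4263 identifiers at 50 CPM or more 24.6% were called higher and 10.7% lower. The members' median log2 fold change was 1.00, with standard errors of 0.11 to 0.25, against 0.13 over the identifiers at 50 CPM or more and 0.00 over all tested. At an unadjusted p below 0.05, 99 members were higher and 0 lower in edgeR. DESeq2 had 93 members higher after adjustment and 0 lower. Fitted without the CKO 30 min libraries, 97 members rose, where 12.6% of all identifiers tested and 31.2% of those at 50 CPM or more were called higher.

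**Figure D2:**
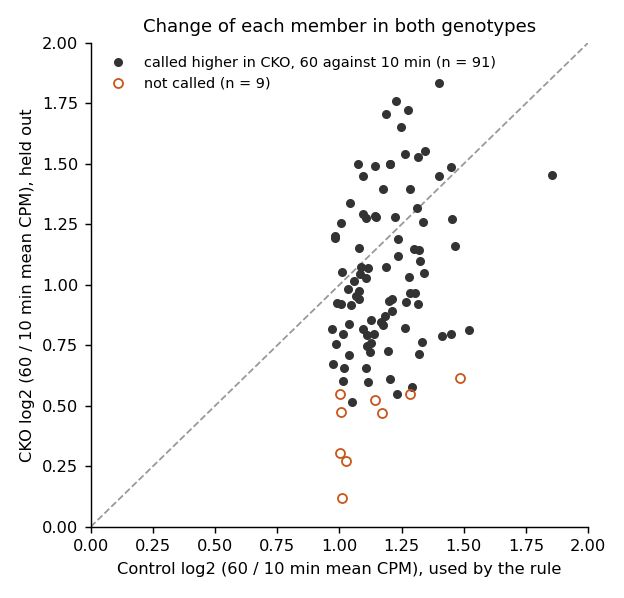
Each point is a member, placed by its log2 ratio of 60 to 10 min mean CPM in Control (horizontal, used to choose it) and in CKO (vertical, held out). Filled points are the 91 members called higher in CKO, open points the 9 that were not, and the dashed line marks equal ratios; 71 members lie below it and 29 above.

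Most members changed somewhat less in CKO than in the Control libraries that had singled them out, and the order among them carried over loosely. The Control ratio was the larger in 71 members and the CKO ratio in 29, a balance that choosing extreme Control ratios favours and that was not tested. Members at places 1 to 20 had a median Control ratio of 2.59 and a median CKO ratio of 2.22. Of these 20, 19 were called higher in CKO from 10 to 60 min (edgeR, Benjamini-Hochberg). Those at places 81 to 100 had medians of 2.01 and 1.71, and 15 of these 20 were called higher. The lowest CKO ratio among them was 1.09, so those not called also had a higher mean at 60 min. The share called higher was 24.6% over the 4263 identifiers and 5.9% over all tested. Across the 100 members the log2 ratios of the genotypes had a Pearson correlation of 0.32 and a Spearman correlation of 0.31, against 0.67 and 0.66 across the 4263 identifiers. The members span a narrow range of Control ratios by choice, and the 2 ratios come from separate libraries. Abundance and the CKO ratio were weakly related among the members (Pearson 0.16, Spearman 0.16), and the median CKO ratio was 1.91 for the 39 members under 75 CPM and 2.07 for the 16 at 200 CPM or more.

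The member with the highest Control ratio, ENSMUSG00000034640.9 at place 1, had 74.3 and 77.8 CPM in the Control 10 min libraries, 144 in both 20 min libraries, 186 and 174 at 30 min, and 275 and 274 at 60 min. In the CKO libraries it had 112 and 116 CPM at 10 min, 218 and 216 at 20 min, 122 and 129 at 30 min, and 272 and 351 at 60 min. It stood higher in CKO than in Control at 10 and 20 min in every library, and the 60 min libraries of the genotypes overlapped. From 10 to 60 min in CKO it rose by 1.5 on the log2 scale (SE 0.13; adjusted p in edgeR, Benjamini-Hochberg, 2.1e-05).

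The member that rose most in CKO was ENSMUSG00000046546.3 at place 10. It had 45.2 and 44.9 CPM in the CKO 10 min libraries, 81.8 and 91 at 20 min, 59.6 and 89.8 at 30 min, and 157 and 164 at 60 min. Its Control values were 33.1 and 57.7 CPM at 10 min, 67.2 and 60.6 at 20 min, 76 and 65.6 at 30 min, and 119 and 120 at 60 min. The Control 10 min replicates differ widely and enclose the CKO values, whereas at 60 min both CKO libraries lie above both Control libraries. The log2 fold change from 10 to 60 min in CKO was 1.88 (SE 0.17, edgeR, Benjamini-Hochberg adjusted p = 2.69e-05), and the step from 20 to 60 min alone gave 0.98 (SE 0.17, edgeR, Benjamini-Hochberg adjusted p = 0.0238).

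A further 4 members rose by 1.70 or more on the log2 scale in CKO, at places 36, 28, 45 and 32. The member at place 36 went from 32.1 and 31.4 CPM at 10 min to 65 and 56.2 at 20 min and 103 and 112 at 60 min in CKO, whereas its Control libraries held 35.5 and 35.6 at 10 min and 83.9 and 82.3 at 60 min. The member at place 45 went from 101 and 81.3 CPM to 203 and 201 and then 292 and 304 in CKO, below its Control 10 min values of 140 and 133 at the first time and close to its Control 60 min values of 318 and 306 at the last. These 5 members with the largest CKO changes, place 10 included, all had a larger ratio in CKO than in Control. Picking members for their CKO change favours that outcome, which was not tested.

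The 5 most abundant members, at places 52, 72, 83, 71 and 47, all rose in CKO from 10 to 60 min. The most abundant, at place 52, had 315 and 276 CPM in the Control 10 min libraries and 661 and 648 at 60 min. Its CKO values were 222 and 163 CPM at 10 min, 325 and 335 at 20 min, 271 and 200 at 30 min, and 428 and 507 at 60 min. At each EU time both CKO libraries of this member lay below both Control libraries, yet its relative gain was as large, 1.33 on the log2 scale in CKO (SE 0.16; adjusted p in edgeR, Benjamini-Hochberg, 0.000162). The member at place 83 had levels of like size in both genotypes, with 273 and 260 CPM in Control and 316 and 269 in CKO at 10 min, and 538 and 554 in Control and 558 and 599 in CKO at 60 min.

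At the other end, 9 members did not pass the test from 10 to 60 min in CKO, at places 3, 25, 50, 55, 84, 89, 92, 93 and 94. Without the CKO 30 min libraries 6 of them passed, and places 84, 89 and 93 did not. The smallest change belonged to place 89, which had 45.1 and 40.5 CPM at 10 min, 42.8 and 42.6 at 20 min, 27.8 and 30.5 at 30 min, and 44.2 and 48.8 at 60 min in CKO. In Control it had 37.4 and 36.9 CPM at 10 min, 47.7 and 56 at 20 min, 74 and 71.5 at 30 min, and 77.1 and 72.7 at 60 min. Its CKO 60 min libraries overlap those at 10 min, and the log2 fold change was 0.17 (SE 0.18, edgeR, Benjamini-Hochberg adjusted p = 0.674). The member at place 3, near the top of the Control order, changed by 0.66 on the log2 scale in CKO (SE 0.22; adjusted p in edgeR, Benjamini-Hochberg, 0.0752; it was 0.0205 once the 30 min libraries were left out).

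**Figure D3:**
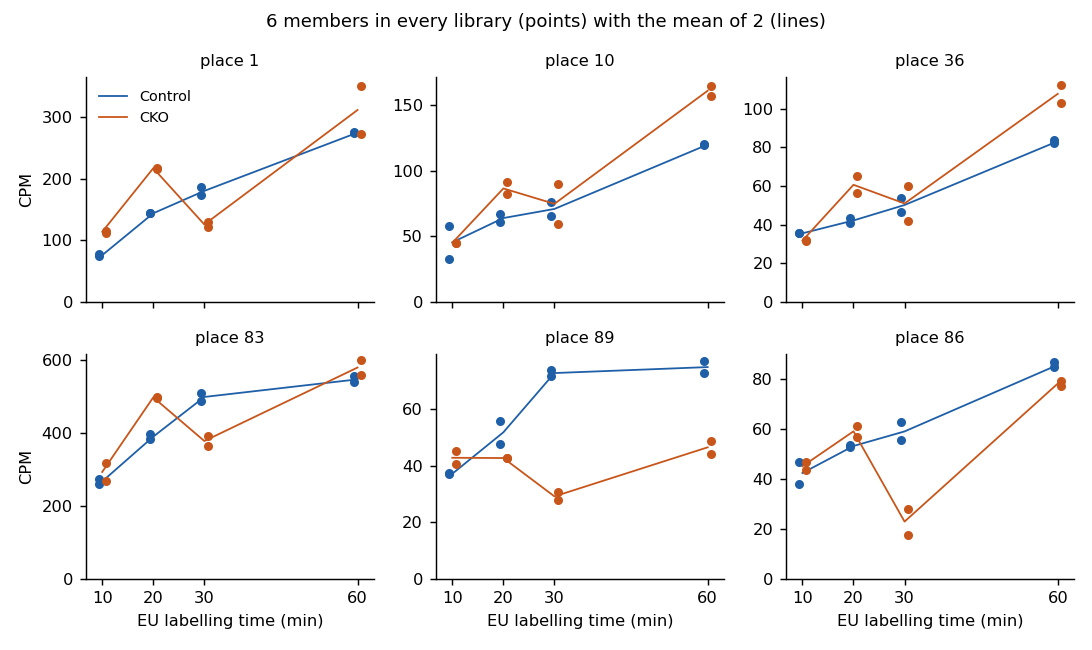
CPM of 6 members (vertical, linear from 0) against EU time in min (horizontal), with a point for each library and lines through the means of 2. Places 1, 10, 36 and 83 are higher at 60 than at 10 min in every library of both genotypes, place 89 overlaps in CKO, and place 86 is lowest in the CKO 30 min libraries (17.7 and 28.2 CPM).

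Part of the gain was already present after 20 min. In CKO 98 members had a higher mean CPM at 20 than at 10 min, with a median ratio of 1.44 (0.909 to 2.57), and in 92 both 20 min libraries lay above both 10 min libraries, against 46.6% of the 4263 identifiers. Of the 100 members 33 rose from 10 to 20 min and 0 fell (edgeR, Benjamini-Hochberg; unadjusted, 68 higher and 0 lower). DESeq2 had 56 members higher after adjustment and 0 lower. Over all identifiers tested 1.71% were called higher and 1.78% lower, and over those at 50 CPM or more 8% higher and 7.13% lower. Without the CKO 30 min libraries 49 members rose, against 4.82% of all identifiers tested and 13.5% of those at 50 CPM or more. All 33 also rose from 10 to 60 min, a comparison that shares the 10 min libraries. The count of 33 rested on single libraries: leaving out CKO 10 min replicate 1 gave 9 and replicate 2 gave 2, leaving out 20 min replicate 1 gave 5 and replicate 2 gave 4, and leaving out 30 min replicate 1 gave 57 and replicate 2 gave 56.

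From 20 to 60 min, 99 members had a higher mean CPM in CKO, with a median ratio of 1.37, and in 93 both 60 min libraries lay above both 20 min libraries, against 33.4% of the 4263 identifiers. In the fit to the 8 CKO libraries 14 members rose and 0 fell (edgeR, Benjamini-Hochberg; unadjusted, 79 higher and 0 lower), and DESeq2 had 66 higher after adjustment and 0 lower. Of all identifiers tested 0.291% were called higher and 0.232% lower, and of those at 50 CPM or more 1.6% and 0.61%. The count was 38 without the CKO 30 min libraries, where 1.3% of all identifiers tested and 4.81% of those at 50 CPM or more were called higher. Leaving out 30 min replicate 1 gave 59 and replicate 2 gave 57, and leaving out 60 min replicate 1 gave 6 and replicate 2 gave 3. It was 0 without any one of the 10 or 20 min libraries (edgeR), with 86, 86, 58 and 60 members higher at an unadjusted p below 0.05. The median log2 fold change was 0.54 with all 8 libraries and 0.54 without the 30 min libraries, while the count went from 14 to 38. The size did depend on the scaling: per ERCC count the median ratio of 60 to 20 min in CKO was 3.27.

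Taken in sequence, 97 members had CKO means that were higher at 20 than at 10 min and higher again at 60 min, against 34.9% of the 4263 identifiers. The exceptions were places 84, 89 and 93. By 20 min the CKO mean had covered a median of 43.8% of its change from 10 to 60 min (quartiles 36.5% and 52.8%), and 35 members were past the midpoint of that change. In Control the median was 36.1% (quartiles 27.8% and 41.6%) and 10 members were past the midpoint, a figure that the choice of members shapes. Early and late gains were weakly related across members in CKO, with a Pearson correlation of 0.18 and a Spearman correlation of 0.21 between the log2 changes from 10 to 20 and from 20 to 60 min, which share the 20 min libraries.

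**Figure D4:**
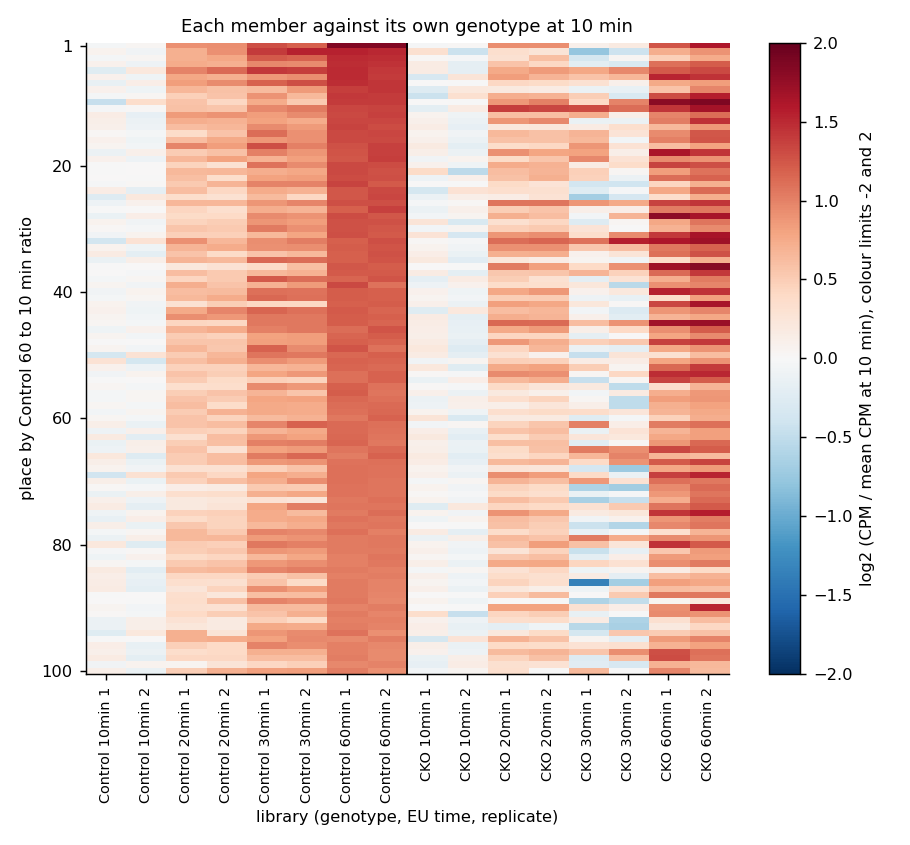
Rows are the 100 members by place and columns the 16 libraries; colour gives log2 of CPM over the member's mean at 10 min in the same genotype, with colours limited at -2 and 2. Control columns deepen at each time as the rule requires, and the CKO columns are deeper at 20 and 60 min but paler at 30 min, where the mean of 86 members is below that at 20 min.

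The CKO 30 min libraries broke the sequence. In 86 members the CKO mean was lower at 30 than at 20 min, and in 69 both 30 min libraries lay below both 20 min libraries, against 64.1% of the 4263 identifiers. Against 10 min, both 30 min libraries lay above both in 40 members, against 20.5% of the 4263. In CPM 60 members had a higher mean at 30 than at 10 min, with a median log2 change of 0.15, where the identifiers at 50 CPM or more had a median of -0.20. After TMM scaling 10 members rose and 18 fell from 10 to 30 min (edgeR, Benjamini-Hochberg), where 4.34% of the identifiers at 50 CPM or more were called higher and 57.6% lower, and 32.6% and 16.5% of all identifiers tested. The members' median log2 fold change was then -0.14, against -0.49 over the identifiers at 50 CPM or more and 0.57 over all 25405 identifiers tested. The sign of the members' median thus rests on the scaling: with library totals it was 0.17, with 28 called higher and 8 lower, and all identifiers tested had a median of 0.88. The 18 called lower became 13 with DESeq2, 38 with all 16 libraries, 5 with a stricter filter, 8 with only the 4 libraries compared and 0 with ERCC totals (edgeR; unadjusted, 0 lower). The 10 called higher became 5 without the second 10 min library and 6 without either 20 min library. The part that the shallow depth and the broad detection of these libraries have in the dip was not tested. Of the members called lower at 30 min, 15 were called higher at 60 min, and of those called higher at 30 min all 10 were, both against the same 10 min libraries. Means at all 4 CKO times were in rising order in 13 members, against 4.18% of the 4263.

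The largest falls from 10 to 30 min in CKO were those of ENSMUSG00000045817.8 at place 86 and ENSMUSG00000049969.3 at place 71. ENSMUSG00000045817.8 had 46.7 and 43.6 CPM at 10 min, 61.4 and 56.9 at 20 min, 17.7 and 28.2 at 30 min, and 79.4 and 77.3 at 60 min in CKO. Its Control libraries held 47 and 37.9 CPM at 10 min, 53.7 and 52.9 at 20 min, 62.8 and 55.5 at 30 min, and 86.8 and 84.9 at 60 min. The genotypes overlapped at 10 min, CKO lay slightly higher at 20 min and slightly lower at 60 min in both libraries, and the gap was widest at 30 min. The CKO log2 fold change from 10 to 30 min was -1.26 (SE 0.21, edgeR, Benjamini-Hochberg adjusted p = 0.000456). It ranged from -1.65 to -0.90 over 16 other settings and was -0.03 with ERCC scaling (adjusted p 0.951).

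ENSMUSG00000049969.3, one of the 5 most abundant members, had 298 and 271 CPM at 10 min, 386 and 371 at 20 min, 185 and 175 at 30 min, and 550 and 623 at 60 min in CKO. Its Control libraries held 290 and 279 CPM at 10 min, 313 and 317 at 20 min, 409 and 405 at 30 min, and 604 and 599 at 60 min. The genotypes overlapped at 10 and 60 min, both CKO libraries lay above both Control libraries at 20 min, and both lay below them at 30 min, where the gap was widest. The CKO log2 fold change from 10 to 30 min was -0.94 (SE 0.11, edgeR, Benjamini-Hochberg adjusted p = 3.25e-05), with a range of -1.04 to -0.58 over 16 other settings, and 0.39 with ERCC scaling (adjusted p 0.319).

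Set against each member's own Control curve, the CKO means fell close to the Control mean of the same EU time at 10 and 20 min. In most members they fell short of it at 30 and at 60 min. At 10 min 48 members had a CKO mean below their Control 10 min mean, and 46 lay between their Control 10 and 20 min means. At 20 min 52 lay between their Control 10 and 20 min means and 32 between those of 20 and 30 min. At 30 min 34 lay below their Control 10 min mean and 46 between those of 10 and 20 min. At 60 min 25 exceeded their Control 60 min mean and 42 lay between those of 30 and 60 min. By linear interpolation the median member stood in CKO where it stood in Control after 10.1, 19.7, 12.7 and 43.9 min, for CKO labelling of 10, 20, 30 and 60 min. Values outside the Control range were set to its ends.

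The same comparison in log2 CPM gave a median difference of CKO from Control of 0.00 at 10 min, -0.01 at 20 min, -0.69 at 30 min and -0.19 at 60 min for the members. Over the 4263 identifiers these medians were -0.11, -0.02, -0.34 and -0.08. The members were chosen for low Control values at 10 min and high ones at 60 min, which by itself moves these differences up at the first time and down at the last. No test was therefore made of the genotypes against each other.

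The members did not stand at a break in the data. Places 98, 99 and 100 had Control ratios of 1.98, 1.97 and 1.96, and places 101, 102 and 103 had 1.96, 1.96 and 1.95. The next 100 identifiers, at places 101 to 200, had a median Control ratio of 1.84 and a median CKO ratio of 1.84, and 82 of them rose in CKO from 10 to 60 min (edgeR, Benjamini-Hochberg). The other 478 that were higher at each Control step had median ratios of 1.42 and 1.37. At the opposite end, the 100 identifiers with the lowest ratio among those lower at each Control step had a median CKO ratio of 0.633, and 49 of them fell and 0 rose in CKO (edgeR, Benjamini-Hochberg; unadjusted, 0 higher, DESeq2 called 64 lower and 1 higher, and in the fit without the 30 min libraries 63 fell and 0 rose). The median CKO change thus followed the Control order from class to class.

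**Figure D5:**
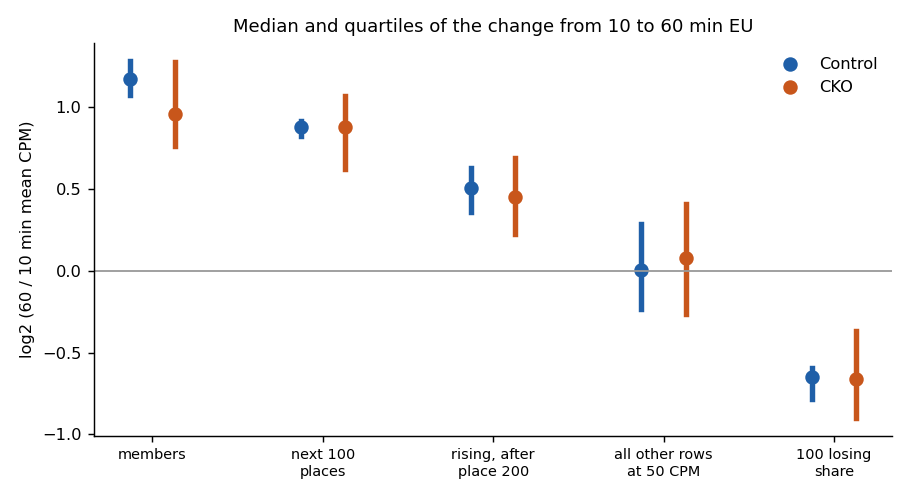
Median (points) and quartiles (bars) of log2 ratio of 60 to 10 min mean CPM, in Control and CKO, for 5 classes of identifiers formed from the Control libraries: the 100 members, the next 100 places (101 to 200), the other 478 higher at each step, all 4163 identifiers at 50 CPM or more that are not members, and the 100 losing share. CKO medians run from 0.96 in the members to -0.66 in the 100 losing share.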

How the data were processed

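The authors deposited unnormalised counts for 54446 mouse identifiers and 92 ERCC species, in 1 file for each of 16 libraries. The submitters' processing notes name HTSeq, HISAT2 2.1.0, Trimmomatic 0.38, CASAVA and the mm10 build. The sources used here give no annotation release, strand setting or feature type, so overlapping, antisense and near-identical genes have uncertain counts.

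CPM were counts over total mouse counts. Members and lists were chosen with earlier results of these data known. The 24 gene lists, the markers and the symbol-based parts of the naming rule could not be applied without symbols and were not run. The text gives the members with the highest Control ratio or level and the largest and smallest CKO changes, and those next to the 100th place. Of the identifiers printed, the pair that fell at 30 min were chosen after their values were seen.

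Contrasts of EU times were tested with edgeR 4.0.16 in R 4.3.3 (group means of the 8 CKO libraries, TMM, filterByExpr, robust quasi-likelihood F-test, Benjamini-Hochberg over 25405 rows, threshold 0.05). Standard errors come from the F statistic. On simulated counts for CKO 60 against 10 min (22968 rows), 46% of 2-fold and 90% of 3-fold changes were called. There were 7 calls among 22768 unchanged rows. The rows were not limited to those at 50 CPM or more, and the rate at the members' level was not tested. No pair of replicates agreed within sampling noise (chi-square over its degrees of freedom, 3.53 to 25.2 across the 8 groups for the members' counts). DESeq2 1.42.0, other scalings, filters and sets of libraries were alternatives.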

Additional observations from a re-analysis of the deposited data

Results flagged for a closer look

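Between 20 and 30 min of EU the genotypes moved in opposite directions in every library. The members' mean share of mouse counts changed by 0.2599 percentage points in Control and by -0.2746 percentage points in CKO. In 64 members both Control 30 min libraries lay above both 20 min libraries while both CKO 30 min libraries lay below both 20 min libraries, against 25.7% of the 4263 identifiers at 50 CPM or more. Between 10 and 30 min the same opposition was seen in 14 members, against 12.5% of the 4263. The rule of choice required a higher Control mean at 30 min, so the Control side of these counts is not a result about the members, and the CKO side alone held for 69 members and 64.1% of the 4263 identifiers from 20 to 30 min. The difference between the genotypes was not tested. The CKO side rests on the 30 min libraries with 5188643 and 5109162 mouse counts, which also had the most identifiers detected, and the part of depth and detection in it was not tested.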

How the results depend on the processing

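The count of members higher in CKO at 60 than at 10 min was 91 and ran from 89 to 100 over the 11 other settings that kept both times' libraries, and from 61 to 97 when 1 library was left out, where the lone sample of a group is assumed to vary like the other groups. The 20 against 10 min count of 33 became 56 with DESeq2, 98 with ERCC totals, 50 with no filter, 58 with all 16 libraries and 70 with all but the 30 min libraries, and 2 to 57 with 1 library left out. The 60 against 20 min count of 14 became 22 with DESeq2 size factors, 66 with DESeq2, 8 with library totals, 100 with ERCC totals, 46 with no filter, 68 with all 16 libraries, 77 with only the 4 libraries compared, 38 without the CKO 30 min libraries, 72 with all but the 30 min libraries of both genotypes, and 0 to 59 with 1 library left out. The 30 against 10 min count of 10 became 17 with DESeq2 size factors, 20 with DESeq2, 28 with library totals, 87 with ERCC totals and 27 with a stricter filter, and 5 to 13 with 1 library left out, while the 18 lower became 0 to 38 over the same kinds of setting (0 with ERCC totals, 38 with all 16 libraries) and 14 to 26 with 1 library left out. Replicate numbers did not pair the libraries (correlations of deviations from -0.11 to 0.03 over 6 pairs of CKO groups), and with a replicate block the 4 counts were 93, 40, 35 and 10. With a level threshold of 20 CPM 51 members stayed in the list, and leaving out 1 Control library kept 77 to 95. With a threshold of 100 CPM 40 stayed, which are all the members at that level. A higher threshold only takes competitors away, so that count was fixed in advance. CKO means in order at 10, 20 and 60 min numbered 93 to 98 with 1 library left out, and in order at all 4 times 9 to 16, or 2 with TMM scaled CPM. Of 703 alternative values for single members, 655 kept their side of the threshold, 27 gained a call, 21 lost it and 0 changed direction. The cause of these shifts was not tested. The alternatives for the gene lists were not run.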

Other observations

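Without its 30 min step, the rule applied to the CKO libraries at 10, 20 and 60 min found 1420 eligible identifiers. The Control libraries gave 1228 without that step. The 100 with the highest CKO ratio shared 35 with the members, 35% of each list, where the members had been chosen with the 30 min step. Of the members 86 were eligible there, where the mean of at least 50 CPM was required over the CKO libraries. The order of the CKO means held in 97 members, against 34.9% of the 4263 identifiers, so some members dropped out on level alone. The CKO list had a median CKO ratio of 2.42 and a median Control ratio of 1.86 (0.717 to 3.61), and 96 of its 100 identifiers had a Control ratio above 1. With all 4 CKO times required to be in rising order, 166 identifiers were eligible and 11 of the members were in the list.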
